A study of Sus scrofa with 60 samples.

Results

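The urea cycle turns ammonia into urea, and the liver is the organ in which the complete cycle runs. N-acetylglutamate synthase makes the activator that carbamoyl phosphate synthetase requires, and this first enzyme of the cycle joins ammonia and bicarbonate in the mitochondrion. Ornithine transcarbamylase forms citrulline there, after which argininosuccinate synthetase, argininosuccinate lyase, and arginase act in the cytosol and release urea. Mitochondrial carriers bring ornithine in and aspartate out. Hepatocytes near the portal vein carry the cycle, whereas a thin ring of hepatocytes around the central vein carries glutamine synthetase and takes up the ammonia that escaped it.

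Levels of 9 genes of this system were measured by RNA sequencing of liver from 60 neonatal pigs. They were selected by gene symbol and are *CPS1* (carbamoyl phosphate synthetase), *OTC* (ornithine transcarbamylase), *ASS1* (argininosuccinate synthetase), *ASL* (argininosuccinate lyase), *ARG1* (arginase), *NAGS* (N-acetylglutamate synthase), *SLC25A15* (the ornithine carrier), *SLC25A13* (citrin, an aspartate-glutamate carrier), and *GLUL* (glutamine synthetase). All 9 were found among 30335 named genes and all 9 were among the 16210 genes with enough reads to test. The piglets, of both sexes, came from sows of mixed Hampshire and Landrace breeding, were delivered preterm by c-section, and were given total parenteral nutrition (PN) on their first day. They were then moved by steps from PN to full feeds of an enteral formula over about the first week (ENT), or received PN with a soy lipid emulsion (SLE, Intralipid), or PN with a multicomponent lipid emulsion (MLE, SMOFlipid), and had sham surgery or bile duct ligation (BDL), in which the cystic and common bile ducts were tied. Livers were collected on day 14 from 12 sham and 10 BDL pigs fed ENT, 10 sham and 11 BDL pigs given SLE, and 9 sham and 8 BDL pigs given MLE. The PN groups had no enteral feeds, so lipid source is compared between SLE and MLE, while either PN group differs from ENT in route and in formula together, and the ENT pigs had themselves received PN at first. The design asks whether these genes differ by diet, by ligation, and by ligation within each diet.

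Libraries held 14471963 to 21376410 counted reads, with a median of 17256486. The lowest count of any member in any pig was 711 reads, for *NAGS*. Levels are given as CPM, the share of a library's counts scaled to a common total, after TMM normalization, which corrects for differences in library composition. The libraries labelled ENT-sham replicate 2 and ENT-BDL replicate 1 were nearly alike: a chi-square of their counts came to 1.87 per degree of freedom, whereas the next closest of 1770 pairs of libraries gave 15.0. For the 9 members, the ratio of ENT-sham replicate 2 to ENT-BDL replicate 1 ran from 0.944 for *ASS1* to 1.03 for *SLC25A13*. Within ENT-sham, replicate 2 was the lowest pig for 7 members and the highest for *ARG1*. Each call of a member that involves ENT is therefore also given without both libraries. For the related gene lists described further on, 121 of 126 called values in contrasts with ENT were also called without both, all 126 kept their sign, and the largest shift was 0.12 on the log2 scale. The 8 hepatocyte markers were detected in every pig (summed level 92963 to 215543 CPM), and summed lymphocyte markers reached at most 13.5 CPM. Liver was sampled in bulk, so fewer cells of a type and less RNA per cell cannot be told apart.

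Levels between genes were compared per kilobase of the gene length given with the counts. *ASS1* stood at 362 ± 121 and *CPS1* at 339 ± 102 CPM per kb (mean ± SD over 60 pigs), above *OTC* at 154 ± 35.9, *ARG1* at 111 ± 52.4, *NAGS* at 94.4 ± 32.9, *GLUL* at 74.5 ± 32.3, and *ASL* at 66.2 ± 14.8. The carriers were lower still, with *SLC25A15* at 25.0 ± 7.54 and *SLC25A13* at 23.6 ± 4.48 CPM per kb. By plain CPM, *CPS1* ranked 58 and *NAGS* ranked 1302 among the tested genes. The place of the carriers depends on the length, since by CPM *SLC25A15* ranked 677 and *SLC25A13* 881, above *ASL* at 1288. The members lie on 7 chromosomes of Sscrofa11.1 (whole gene, start to end), with *CPS1* at chr15:113210038-113339086, *OTC* at chrX:34322398-34391711, *ASS1* at chr1:270531434-270586364, *ARG1* at chr1:32006035-32028983, *ASL* at chr3:16637481-16646869, *NAGS* at chr12:19170398-19173968, *SLC25A15* at chr11:15494176-15551172, *SLC25A13* at chr9:75781421-75980606, and *GLUL* at chr9:123751551-123762575. Other annotated genes overlap *OTC*, *ASL*, *SLC25A15*, and *GLUL*. The largest count of such a gene in any pig was 328 reads, for *RPGR*, which overlaps *OTC* on the opposite strand, whereas the lowest *OTC* count was 2538. Whether strand was used in counting is not stated, and the part of these overlaps in the members' levels was not tested.

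**Figure D1:**
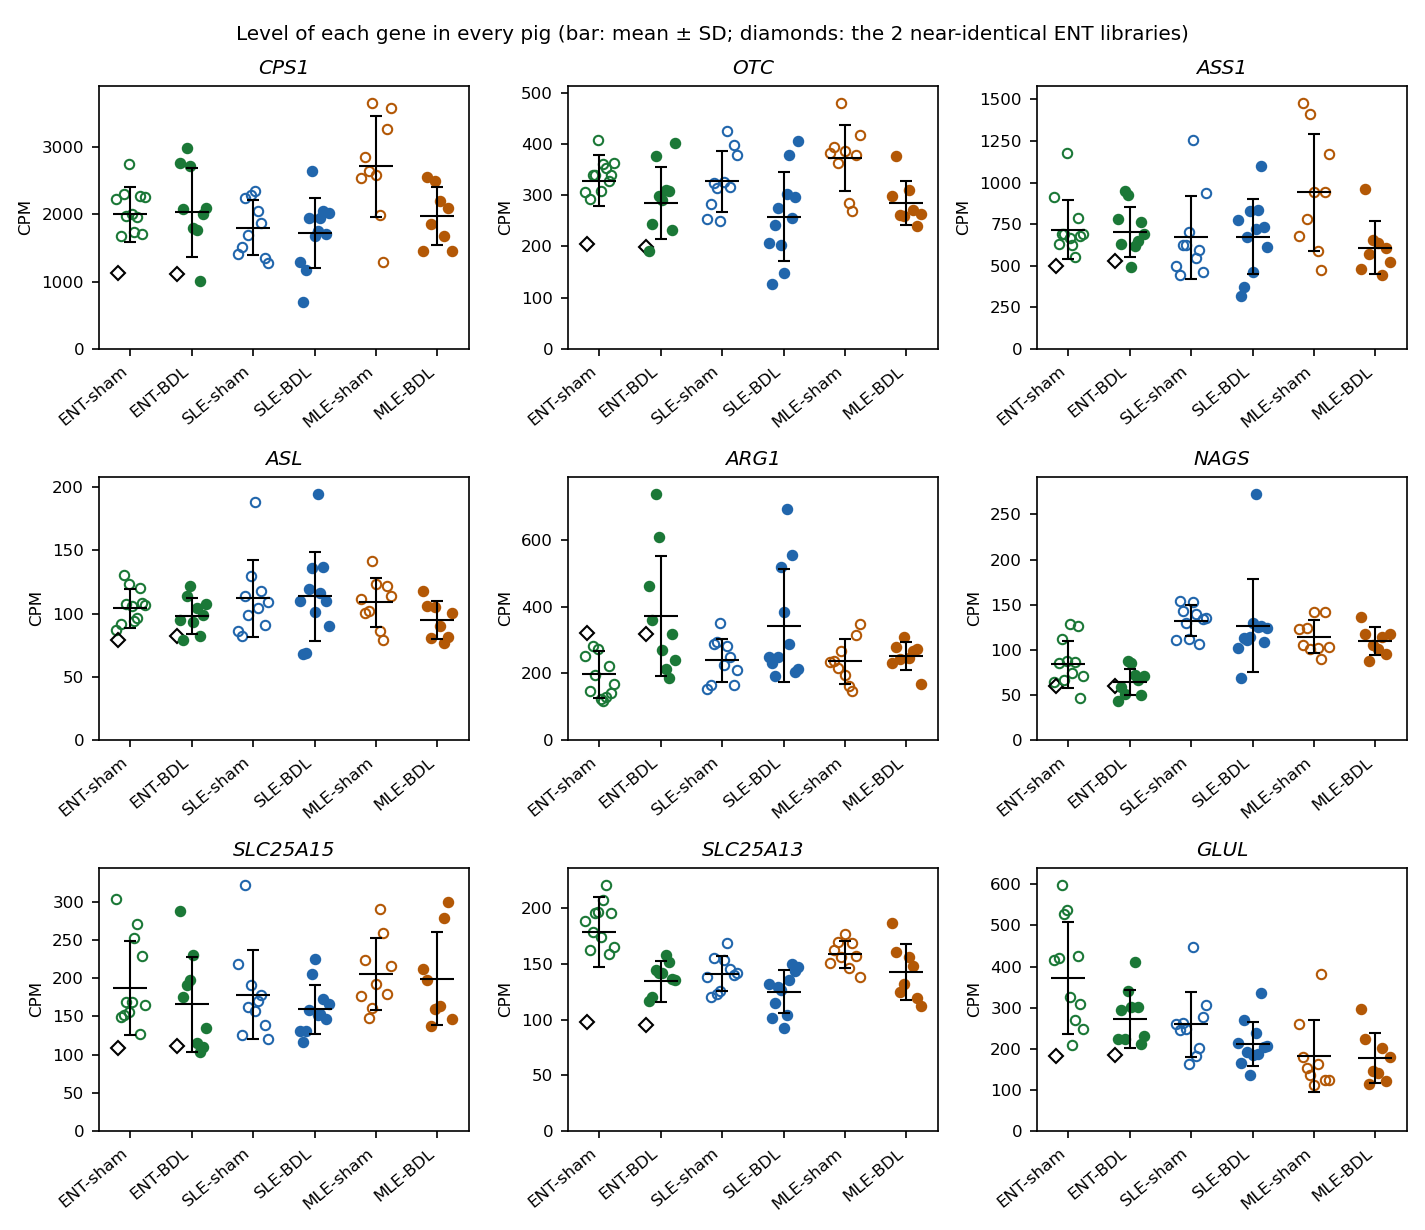
CPM of the 9 genes (one panel each) in every pig of the 6 groups, with sham pigs as open and BDL pigs as filled circles, black diamonds for the near-identical ENT libraries, and bars for mean ± SD. *NAGS* sat lower in both ENT groups, *GLUL* was highest in ENT-sham, and the *ARG1* levels of ENT-BDL and SLE-BDL spread upward to 738 and 692 CPM.

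Diet and ligation together went with very different shares of the variation of single members. The 6 groups held 56.6% of the variance of log2 CPM between pigs for *NAGS*, 42.6% for *GLUL*, and 39.7% for *SLC25A13*, against a median of 21.9% over all tested genes. The share was 27.8% for *ARG1*, 26.9% for *OTC*, 20.2% for *CPS1*, and 14.9% for *ASS1*. It was 10.5% for *SLC25A15* and 7.49% for *ASL*, whose group means differed by at most 1.20-fold. The activator enzyme and glutamine synthetase thus followed the groups most, and in every member but *NAGS* most of the variance lay among pigs of one group. No correction was made for the share that 6 groups take by chance.

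*NAGS* was higher on both PN diets than on ENT. In sham pigs its lowest, median, and highest levels were 46.5, 80.0, and 128 CPM on ENT, 107, 135, and 155 CPM on SLE, and 89.4, 106, and 141 CPM on MLE. All 10 SLE-sham and all 9 MLE-sham pigs lay above the ENT-sham median, and 7 and 2 of them lay above every ENT-sham pig. The difference from ENT-sham was a log2 fold change of 0.65 (SE 0.15, adjusted p = 0.000457) for SLE and 0.45 (SE 0.15, adjusted p = 0.0252) for MLE. Both contrasts use the same ENT-sham pigs. Without both near-identical ENT libraries the values were 0.61 (adjusted p = 0.00134) and 0.40 (adjusted p = 0.0495). The MLE-sham call was lost when ENT-sham replicate 11, MLE-sham replicate 5, or MLE-sham replicate 8 was left out, with an adjusted p of at most 0.0577.

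In ligated pigs the *NAGS* gap between PN and ENT was wider in value. Levels were 42.6, 63.2, and 87.3 CPM in ENT-BDL (lowest, median, highest), 68.3, 114, and 273 CPM in SLE-BDL, and 88.0, 109.5, and 137 CPM in MLE-BDL. Every MLE-BDL pig was above every ENT-BDL pig, and 10 of 11 SLE-BDL pigs were, SLE-BDL replicate 2 being the exception. *NAGS* was 1.97-fold higher in SLE-BDL than in ENT-BDL (log2 fold change 0.98, SE 0.15, adjusted p = 2.63e-06) and 1.70-fold higher in MLE-BDL (0.77, SE 0.16, adjusted p = 0.000423). Leaving out the highest pig, SLE-BDL replicate 7, gave 0.80 for SLE, and the values without the near-identical ENT libraries were 0.97 and 0.75. The ligation response of *NAGS* was not shown to differ between diets: the interaction was 0.33 for SLE against ENT (95% interval -0.09 to 0.75, adjusted p = 0.499), which became 0.14 without SLE-BDL replicate 7, and 0.32 for MLE against ENT (-0.12 to 0.76, adjusted p = 0.728).

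Ligation itself moved *NAGS* within ENT by -0.39 on the log2 scale (SE 0.15, adjusted p = 0.0604), which did not pass the threshold. Without both near-identical ENT libraries the value was -0.42 with an adjusted p of 0.046, and DESeq2 gave -0.40 with an adjusted p of 0.044, so this value lies at the border of the call. The differences were -0.06 in SLE (95% interval -0.36 to 0.24, and -0.24 without SLE-BDL replicate 7) and -0.07 in MLE (-0.40 to 0.27). In the order of group means, SLE-sham came first, then SLE-BDL, then MLE-sham, then MLE-BDL, then ENT-sham, and ENT-BDL last. The neighbours with a called difference of means were MLE-BDL and ENT-sham (log2 fold change 0.38, adjusted p = 0.0485), the one such step among the 45 neighbouring pairs of groups over all members. Levels of the 2 groups overlapped, at 88.0 to 137 CPM in MLE-BDL and 46.5 to 128 CPM in ENT-sham. That step passed under none of 8 other ways of processing (adjusted p from 0.0517 to 0.0932), and without both near-identical ENT libraries it was 0.33 (adjusted p = 0.0932).

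*GLUL* moved the opposite way and was lower on PN. Sham pigs had lowest, median, and highest levels of 181, 371, and 598 CPM on ENT, 163, 254, and 447 CPM on SLE, and 111, 154, and 383 CPM on MLE. Of 9 MLE-sham pigs, 7 were below every ENT-sham pig, whereas MLE-sham replicate 7 lay above the ENT-sham median. *GLUL* was lower in MLE-sham than in ENT-sham by a log2 fold change of -1.04 (SE 0.21, adjusted p = 0.000145), a ratio of 0.488 and the single called change among the 9 members to exceed 2-fold in a diet or ligation contrast (3.71% of all genes passed and exceeded 2-fold in this one). Without MLE-sham replicate 7 it was -1.25, and without the near-identical ENT libraries -1.11. The call held with each pig left out, but the change fell under 2-fold without any one of ENT-sham replicates 4, 5, and 6 or MLE-sham replicates 4, 5, 8, and 9 (down to -0.96) and under a block for the 3-digit number in the pig label (-0.97), whose meaning the label does not give. The SLE-sham difference from the same ENT-sham pigs was -0.52 (SE 0.20, adjusted p = 0.0408).

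That SLE-sham call rested on single pigs. It was lost without any one of ENT-sham replicates 1, 3, 4, 5, 6, and 10 or SLE-sham replicates 1, 2, 3, 4, 5, 7, and 8, with an adjusted p of at most 0.0879, and with the label-number block (-0.47, adjusted p = 0.0632). Without the near-identical ENT libraries the difference was -0.59 (adjusted p = 0.0166). MLE-sham and SLE-sham differed in *GLUL* by -0.51 (95% interval -0.94 to -0.09), which did not pass over all genes (adjusted p = 0.29).

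In ligated pigs *GLUL* ranged over 185, 263, and 412 CPM in ENT-BDL (lowest, median, highest), 137, 205, and 335.5 CPM in SLE-BDL, and 113, 162, and 296 CPM in MLE-BDL. Of 8 MLE-BDL pigs 5 were below every ENT-BDL pig. The difference was -0.62 for MLE-BDL against ENT-BDL (SE 0.22, adjusted p = 0.0424) and -0.36 for SLE-BDL against ENT-BDL (95% interval -0.76 to 0.04, adjusted p = 0.203). The MLE-BDL call was lost without any one of ENT-BDL replicates 3, 5, 6, 7, and 8 or MLE-BDL replicates 3, 4, 5, 7, and 8, with an adjusted p of at most 0.0974, and under the label-number block (-0.57, adjusted p = 0.0891). Without the near-identical ENT libraries it was -0.67 (adjusted p = 0.0238). No ligation difference of *GLUL* passed. It was -0.45 in ENT (adjusted p = 0.107, and 0.0442 without ENT-sham replicate 2), while SLE gave -0.29 (adjusted p = 0.467) and MLE -0.03 (adjusted p = 0.948). The group means ran down from ENT-sham to ENT-BDL, then SLE-sham, then SLE-BDL, then MLE-sham, then MLE-BDL, and no neighbours in that order had a called difference of means.

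Within each pig, *GLUL* was set against *CPS1* as a ratio of CPM per kb, which pairs the perivenous with the periportal route for ammonia. The median ratio was 32.3% in ENT-sham and 23.5% in ENT-BDL, 27.3% in SLE-sham and 21.1% in SLE-BDL, and for the MLE groups 10.2% after sham and 13.3% after BDL. The MLE-sham pigs spanned 6.10% to 52.4%, and the upper end was again replicate 7, which was the lowest pig of its group for *CPS1*, *OTC*, *ASS1*, *ASL*, *ARG1*, and *NAGS*. The median ratio of *NAGS* to *CPS1* was 23.3% in ENT-sham and 17.8% in ENT-BDL, against 39.1% and 34.7% in the SLE groups and 25.3% and 25.2% in the MLE groups. Both ratios are descriptions and were not tested.

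**Figure D2:**
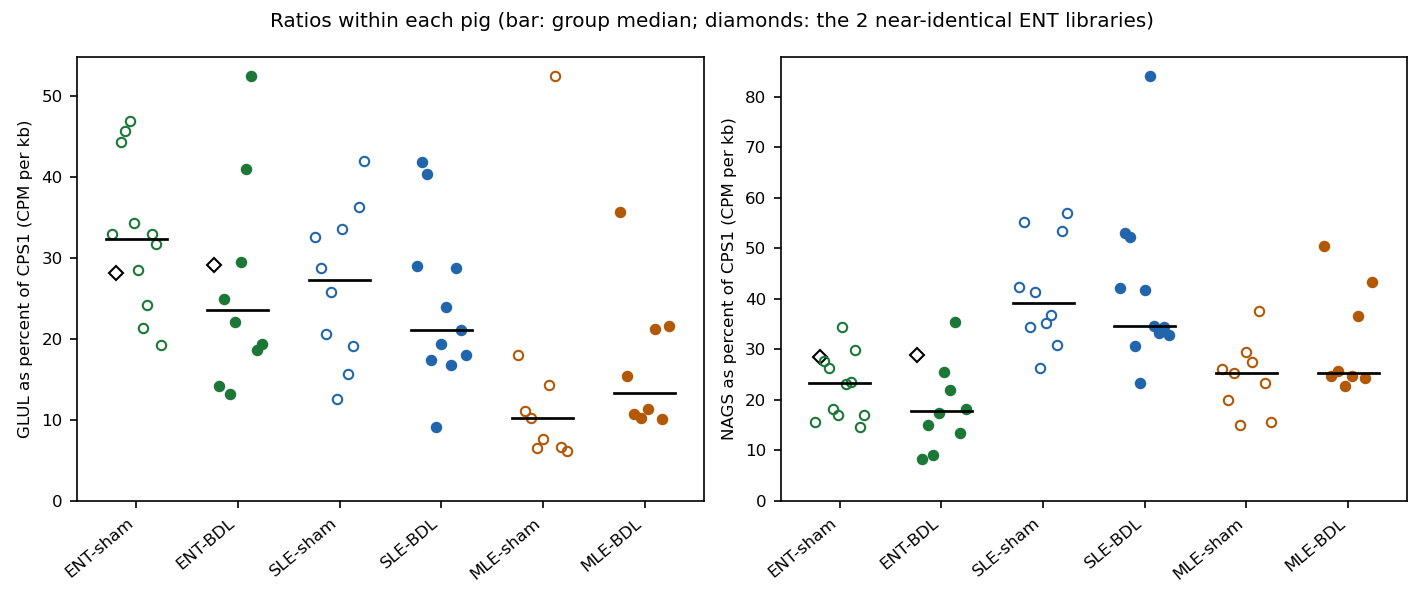
Ratio of *GLUL* (left) and *NAGS* (right) to *CPS1* within each pig, as percent of CPM per kb, with sham pigs open, BDL pigs filled, group medians as bars, and the near-identical ENT libraries as diamonds. The MLE groups had the lowest *GLUL* medians (10.2% and 13.3%), with single pigs up to 52.4%, and the SLE groups had the highest *NAGS* medians (39.1% and 34.7%).

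*ARG1*, the last enzyme of the cycle, was higher after ligation in ENT pigs. Its lowest, median, and highest levels were 115, 181, and 320 CPM in ENT-sham and 186, 318, and 738 CPM in ENT-BDL. All 10 ENT-BDL pigs were above the ENT-sham median and 4 were above every ENT-sham pig, the highest of which was replicate 2. The difference was 1.89-fold (log2 fold change 0.91, SE 0.22, adjusted p = 0.00187). On the log2 scale it was 1.01 without both near-identical libraries (adjusted p = 0.000676) and 0.75 without ENT-BDL replicate 4, the pig at 738 CPM (adjusted p = 0.0104).

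Ligated SLE pigs had *ARG1* levels of 193, 248, and 692 CPM (lowest, median, highest), against 154, 237, and 349.9 CPM in SLE-sham. Medians were close, and 4 of 11 SLE-BDL pigs lay above every SLE-sham pig. The log2 fold change was 0.53 (95% interval 0.08 to 0.97) and did not pass (adjusted p = 0.178). In MLE the levels were 147, 234, and 349 CPM after sham and 169, 255, and 308 CPM after BDL, with a log2 fold change of 0.09 (-0.40 to 0.59, adjusted p = 0.854). The ligation responses were not shown to differ between diets. The interaction was -0.82 for MLE against ENT (95% interval -1.48 to -0.16, adjusted p = 0.426), -0.39 for SLE against ENT (adjusted p = 0.617), and -0.43 for MLE against SLE (adjusted p = 0.743). No diet contrast of *ARG1* passed within sham or within BDL pigs.

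*SLC25A13*, which exports the aspartate that argininosuccinate synthetase consumes, was lower after ligation in ENT pigs. Levels were 98.0, 184, and 221 CPM in ENT-sham (lowest, median, highest) and 95.2, 139, and 158 CPM in ENT-BDL. All 10 ENT-BDL pigs were below the ENT-sham median, and the lowest ENT-sham pig other than replicate 2 had 159 CPM, above every ENT-BDL pig. The log2 fold change was -0.41 (SE 0.09, adjusted p = 0.00121), and -0.43 without both near-identical libraries (adjusted p = 8.09e-05). The ligation differences of -0.17 in SLE (95% interval -0.37 to 0.02) and -0.15 in MLE (-0.37 to 0.06) did not pass, nor did the interactions of SLE or MLE with ENT (0.24, adjusted p = 0.425, and 0.26, adjusted p = 0.612).

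On SLE without ligation *SLC25A13* was also lower than in ENT-sham, at 121, 141, and 169 CPM. The difference was -0.34 (SE 0.09, adjusted p = 0.00481), with all 10 SLE-sham pigs below the ENT-sham median, and -0.40 without both near-identical ENT libraries (adjusted p = 9.13e-05). MLE-sham pigs stood at 138, 157, and 177 CPM, a difference of -0.17 (95% interval -0.37 to 0.02, adjusted p = 0.211). This value passed without ENT-sham replicate 2 (-0.24, adjusted p = 0.0421), without both near-identical libraries (-0.24, adjusted p = 0.0311), and under the label-number block (-0.39, adjusted p = 0.00637). In BDL pigs neither PN diet differed from ENT past the threshold.

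*ASS1*, which condenses citrulline with aspartate, was lower after ligation in MLE pigs. Its lowest, median, and highest levels were 474, 941, and 1478 CPM in MLE-sham and 444, 587, and 959 CPM in MLE-BDL. Of 8 MLE-BDL pigs 7 were below the MLE-sham median, but 1 was below every MLE-sham pig. The log2 fold change was -0.63 (SE 0.21, adjusted p = 0.0305). It lost its call without any one of MLE-sham replicates 2, 4, and 9 or MLE-BDL replicates 1, 3, 6, and 8 (adjusted p of at most 0.0774), and with the replicate number of the labels as a block (-0.59, adjusted p = 0.0597). In ENT and SLE the ligation differences of *ASS1* were -0.03 (95% interval -0.39 to 0.33) and 0.01 (-0.36 to 0.38), and the interactions with MLE did not pass (-0.60 against ENT, adjusted p = 0.512, and -0.64 against SLE, adjusted p = 0.431). Summed hepatocyte markers also ran lower in MLE-BDL (104522 to 125249 CPM) than in MLE-sham (147508 to 215543 CPM), with 6 of 8 called lower, and their part in the *ASS1* difference was not tested.

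*CPS1* and *OTC*, the mitochondrial enzymes of the cycle, passed no diet or ligation contrast. *CPS1* levels were 1283, 2647, and 3650 CPM in MLE-sham (lowest, median, highest), 1129, 1993, and 2753 CPM in ENT-sham, and 1281, 1778, and 2345 CPM in SLE-sham. Of 9 MLE-sham pigs 7 lay above every SLE-sham pig. The log2 difference was 0.59 against SLE-sham (95% interval 0.22 to 0.96, adjusted p = 0.107) and 0.44 against ENT-sham (0.09 to 0.79, adjusted p = 0.0641). Without the lowest MLE-sham pig, replicate 7, these became 0.68 (adjusted p = 0.0421) and 0.53 (adjusted p = 0.0217) and passed, and the second also passed without ENT-sham replicate 6 and with edgeR on the groups compared (0.43, adjusted p = 0.0458). After ligation the levels were 1457, 1975, and 2557 CPM in MLE-BDL, a change of -0.46 from MLE-sham (-0.85 to -0.07, adjusted p = 0.108), which passed without MLE-sham replicate 7 (-0.55, adjusted p = 0.0423).

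*OTC* was lower in value after ligation on each diet. The ligation changes were -0.20 in ENT (95% interval -0.48 to 0.07), -0.34 in SLE (-0.62 to -0.06), and -0.39 in MLE (-0.70 to -0.08), with adjusted p-values of 0.329, 0.158, and 0.0842. In MLE the lowest, median, and highest levels were 269, 382, and 479 CPM after sham and 240, 267, and 376 CPM after BDL, and 4 of 8 MLE-BDL pigs were below every MLE-sham pig. The MLE value passed without MLE-sham replicate 6 or MLE-BDL replicate 2 and under the label-number block (-0.36, adjusted p = 0.0471).

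*ASL* and *SLC25A15* passed no contrast. The group means of *ASL* lay between 94.8 ± 14.8 CPM in MLE-BDL (n = 8) and 114 ± 35.3 CPM in SLE-BDL (n = 11). Those of *SLC25A15* lay between 159.6 ± 32.2 CPM in SLE-BDL (n = 11) and 205 ± 46.9 CPM in MLE-sham (n = 9). No 2 neighbouring groups in the order of means had a called difference for either gene. For the other members the order of means ran as follows. *CPS1* was highest in MLE-sham, then ENT-BDL, then ENT-sham, then MLE-BDL, then SLE-sham, then SLE-BDL. *OTC* and *ASS1* were also highest in MLE-sham and second in ENT-sham, with the lowest mean in SLE-BDL for *OTC* and in MLE-BDL for *ASS1*. For *OTC* the order of the sham groups rests on the fit, since MLE-sham minus ENT-sham was 0.18 in the fit over groups and -0.15 under the label-number block, and neither passed. *ARG1* was highest in ENT-BDL, then SLE-BDL, and lowest in ENT-sham, and *SLC25A13* was highest in ENT-sham and lowest in SLE-BDL.

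**Figure D3:**
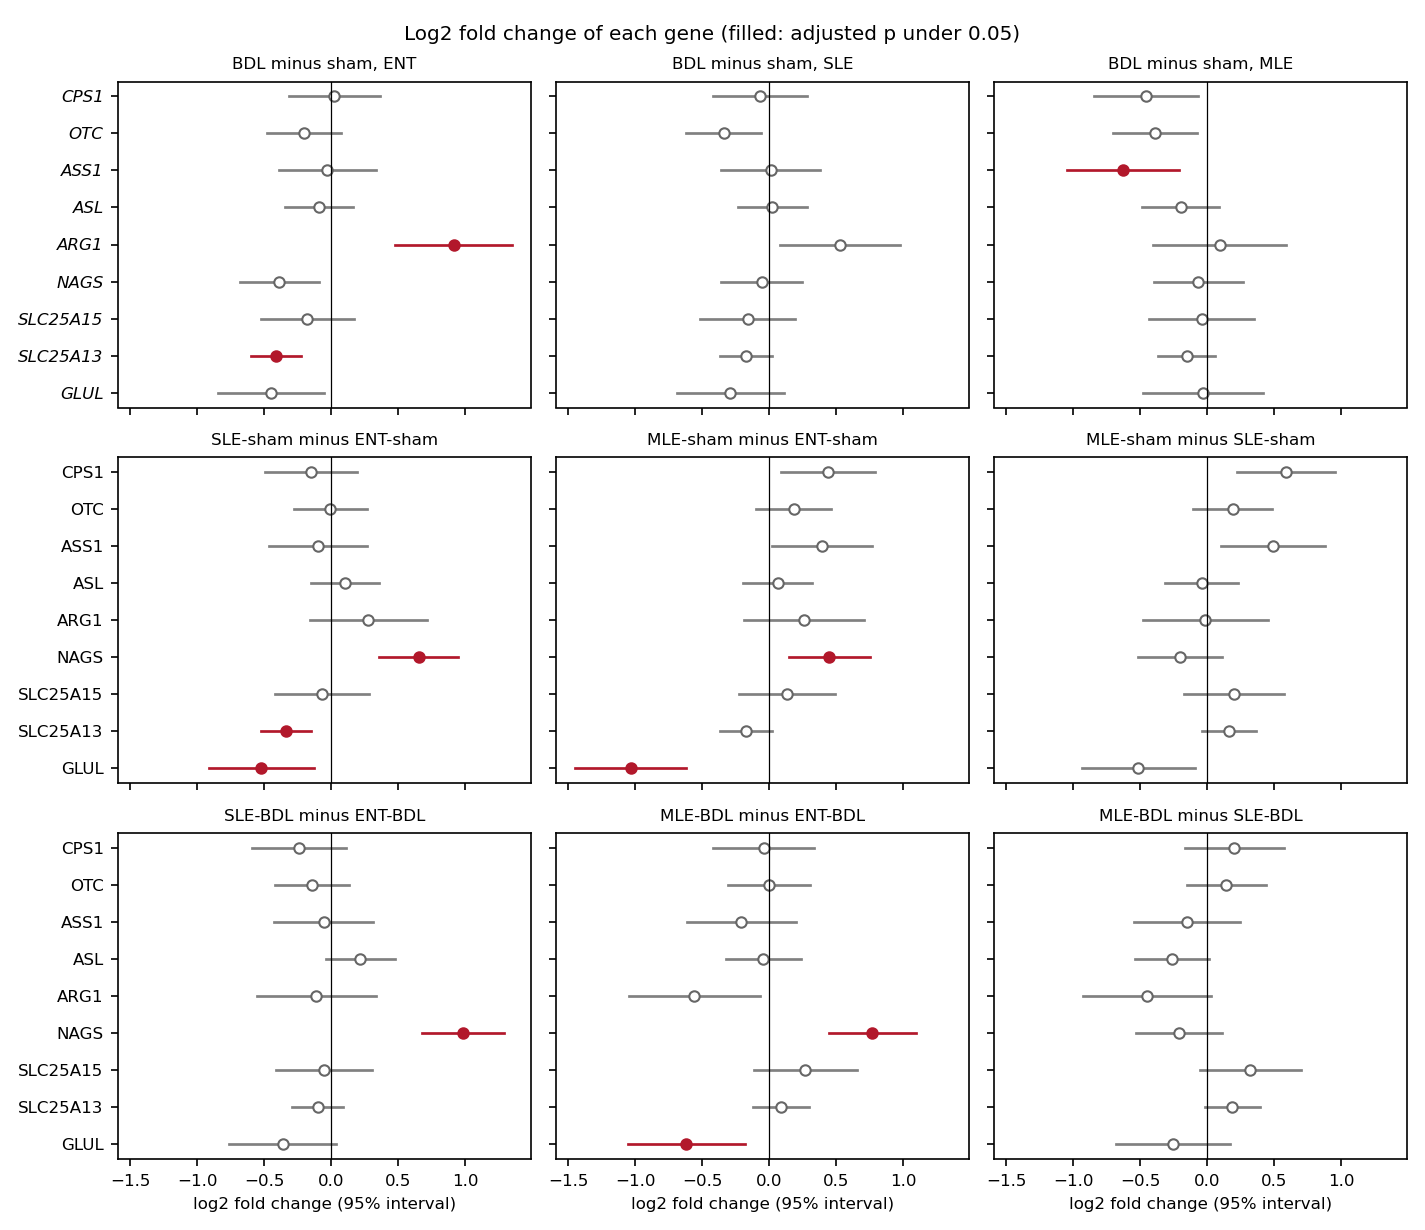
Log2 fold change of each gene (points) with its 95% interval (lines) in 9 contrasts, filled red where the adjusted p was under 0.05. Red points are few, and they are *NAGS* in all 4 PN contrasts with ENT, *GLUL* in 3 of them, *ARG1* and *SLC25A13* after ligation on ENT, *ASS1* after ligation on MLE, and *SLC25A13* in SLE-sham against ENT-sham.

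Counts of members were set beside the share of all tested genes that were called (adjusted p under 0.05). After ligation 2 of 9 members were called in ENT (1 higher, 1 lower), where 17.4% of all genes were, 0 of 9 in SLE, where 4.54% were, and 1 of 9 in MLE, where 14.4% were. For SLE-sham against ENT-sham 3 of 9 members were called beside 27.5% of genes, and for MLE-sham against ENT-sham 2 of 9 beside 21.1%. In BDL pigs 1 of 9 was called for SLE against ENT beside 19.6% of genes, and 2 of 9 for MLE against ENT beside 16.8%. These shares lie near the background in each case. By direction, the members called higher were 1 each for ligation in ENT (8.89% of genes), for SLE-sham (13.9%) and MLE-sham (10.7%) against ENT-sham, and for SLE-BDL (10.4%) and MLE-BDL (8.53%) against ENT-BDL, and 0 for ligation in SLE (2.97%) and MLE (7.85%). Those called lower were 1 for ligation in ENT (8.53%), 0 in SLE (1.57%), 1 in MLE (6.58%), 2 for SLE-sham (13.6%), 1 for MLE-sham (10.4%), 0 for SLE-BDL (9.17%), and 1 for MLE-BDL (8.27%) against ENT. With a fold over 2 as well, *GLUL* in MLE-sham was the single call, and 0 remained without any one of the 7 pigs named for it, where 3.39%, 1.49%, and 3.78% of genes passed for ligation in ENT, SLE, and MLE, 5.24% for SLE-sham and 3.71% for MLE-sham against ENT-sham, 3.13% for SLE-BDL and 3.18% for MLE-BDL against ENT-BDL, and 0.463% and 0.370% for MLE against SLE in sham and BDL pigs. MLE and SLE differed in 0 of 9 members, where 0.999% of genes were called in sham and 0.907% in BDL pigs, with 3 and 0 members at an unadjusted p under 0.05, and DESeq2 also called 0. In SLE after ligation 2 members were under 0.05 unadjusted, and DESeq2 called 0. The interactions held 0 of 9 members beside 2.33% (SLE minus ENT), 0.0617% (MLE minus ENT), and 0.265% (MLE minus SLE) of genes, with 0, 2, and 1 members at an unadjusted p under 0.05 and 0 by DESeq2. The median log2 fold change of the 9 members ranged from -0.18 (ligation in ENT) to 0.18 (MLE-sham against ENT-sham), and that of all genes from -0.01 to 0.01.

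Members also varied together among pigs of one group. After each group mean was subtracted from log2 CPM, *CPS1* and *ASS1* correlated at Pearson r = 0.71 (Spearman rho 0.74), *ASS1* and *ASL* at 0.70 (0.68), and *CPS1* and *ASL* at 0.64 (0.64) over 60 pigs. Without the 2 pigs farthest from the *CPS1* median the first became 0.63. Among the 10 pairs of the 5 cycle enzymes the median r was 0.49, and 5 pairs exceeded 0.5. The lowest was *OTC* with *ARG1* (r = -0.01, and 0.18 with the label number also subtracted). *OTC* went instead with *SLC25A13* (r = 0.61). *GLUL* had r from -0.09 (with *CPS1*) to 0.38 (with *SLC25A13*) and a median of 0.12, and *SLC25A15* had r from -0.11 (with *NAGS*) to 0.32 (with *CPS1*) and a median of 0.01, whereas the median over all 36 pairs was 0.27. With the label number also subtracted, *SLC25A15* reached 0.58 with *CPS1* and 0.55 with *SLC25A13*. Pigs share depth, RNA quality, and the number in their label across genes, so these correlations are given as descriptions, and with the label number also subtracted the median over cycle enzymes was 0.59.

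**Figure D4:**
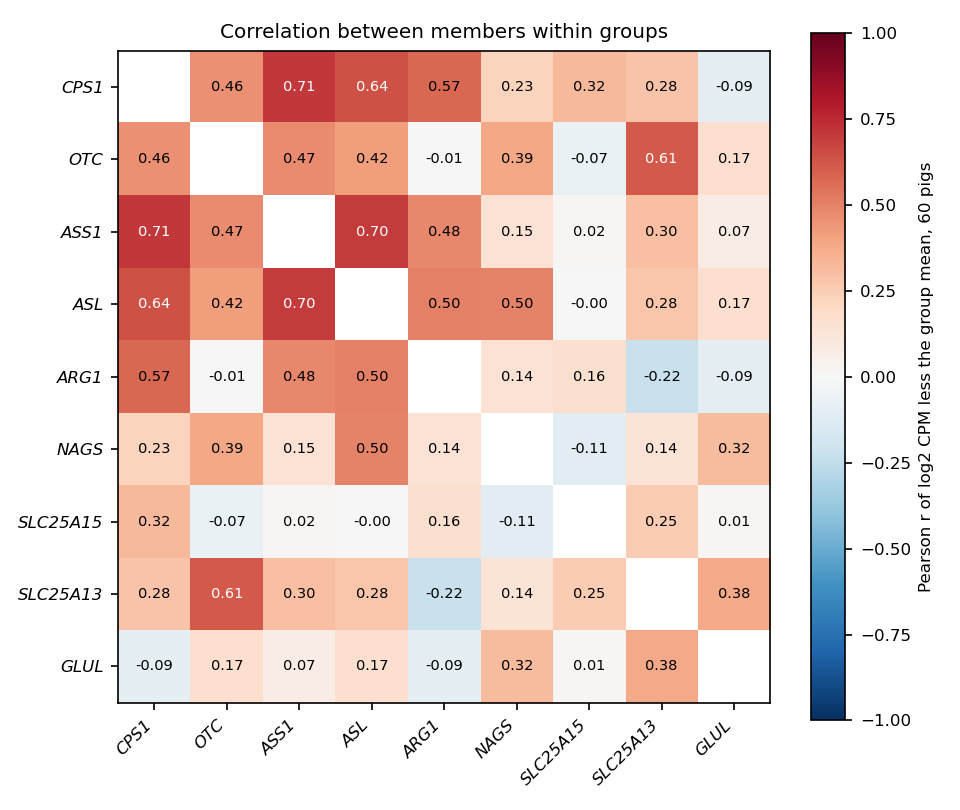
Pearson r between the 9 genes over 60 pigs, from log2 CPM with the group mean subtracted. *CPS1*, *ASS1*, and *ASL* form a block of 0.64 to 0.71, *OTC* goes with *SLC25A13* at 0.61, and the row of *GLUL* runs from -0.09 to 0.38.

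The genes whose deviations followed a member most closely, among 10812 with a mean log2 CPM of at least 2, differed by member. *CTH* (cystathionine gamma-lyase) was the closest for both *CPS1* (r = 0.84) and *ASS1* (r = 0.79), and *HPD* (a tyrosine-degrading dioxygenase) for *ASL* (r = 0.79). *OTC* went with *EHHADH* (a peroxisomal beta-oxidation enzyme, r = 0.92), *IVD* (0.84), and *PCK2* (0.84). *SLC25A13* went with *MTCH2* (0.83), *PDHB* (0.82), and *MACROD1* (0.81), and *NAGS* with *TUBA8* (0.79), *KIAA0232* (0.73), and *RNF43* (0.71). *ARG1* went with *SDSL* (0.66), *MARCH6* (0.62), and *AASS* (0.61), *SLC25A15* with *B3GALNT2* (0.60), and *GLUL* with *BLVRB* (0.67), *CDK4* (0.65), and *RANGAP1* (0.63). With the label number also subtracted, *B3GALNT2* had 0.41 with *SLC25A15*, below *PPP2CA* at 0.71. The 3 genes named for *GLUL* then had 0.50, 0.50, and 0.46.

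Genes that share the zone of *GLUL* were lower on PN as well. Of 12 perivenous genes, 7 were lower in SLE-sham and 8 in MLE-sham than in ENT-sham, and 5 and 6 in SLE-BDL and MLE-BDL than in ENT-BDL, with none higher. Of all genes, 13.6%, 10.4%, 9.17%, and 8.27% were lower in these contrasts. The median log2 fold changes of the list were -0.59 and -0.71 in sham and -0.40 and -0.54 in BDL pigs, beside medians of -0.01 to 0.01 over all genes. *CYP2E1*, a P450 of the central-vein zone, had 1100.1 ± 456 CPM in ENT-sham (n = 12), 169.8 ± 168 in SLE-sham (n = 10), and 172 ± 77.1 in MLE-sham (n = 9), with log2 fold changes of -2.70 (adjusted p = 0.000154) and -2.68 (adjusted p = 0.000432). *RHBG*, an ammonia transporter, had 45.8 ± 19.2 CPM in ENT-sham, 14.2 ± 5.86 in SLE-sham (log2 fold change -1.68, adjusted p = 0.000193), and 19.4 ± 7.46 in MLE-sham (-1.24, adjusted p = 0.00884).

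Ligation also lowered perivenous genes, 7 of 12 in ENT, 1 in SLE, and 4 in MLE (8.53%, 1.57%, and 6.58% of all genes were lower), while *GLUL* itself passed in none of these. *CYP2E1* changed by a log2 fold change of -1.86 in ENT (adjusted p = 0.0106) and of -2.59 in MLE (adjusted p = 0.00265). *LGR5*, an R-spondin receptor that strengthens Wnt signalling, was also lower in ENT (-0.98, adjusted p = 0.00263) and MLE (-0.96, adjusted p = 0.0125). *NOTUM*, a Wnt inhibitor, was the one called in SLE (-0.47). Within groups, *GLUL* correlated with *RHBG* at r = 0.50, *CYP2E1* at 0.47, *RNF43* at 0.46, and *CYP1A2* at 0.45, and its median r was 0.25 over the 12 perivenous and -0.06 over 10 periportal genes. Of the 12 perivenous genes 10 had r over 0, while *SLC1A2* had -0.12 and *OAT* -0.06. The counts of this list were the same without the near-identical ENT libraries.

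**Figure D5:**
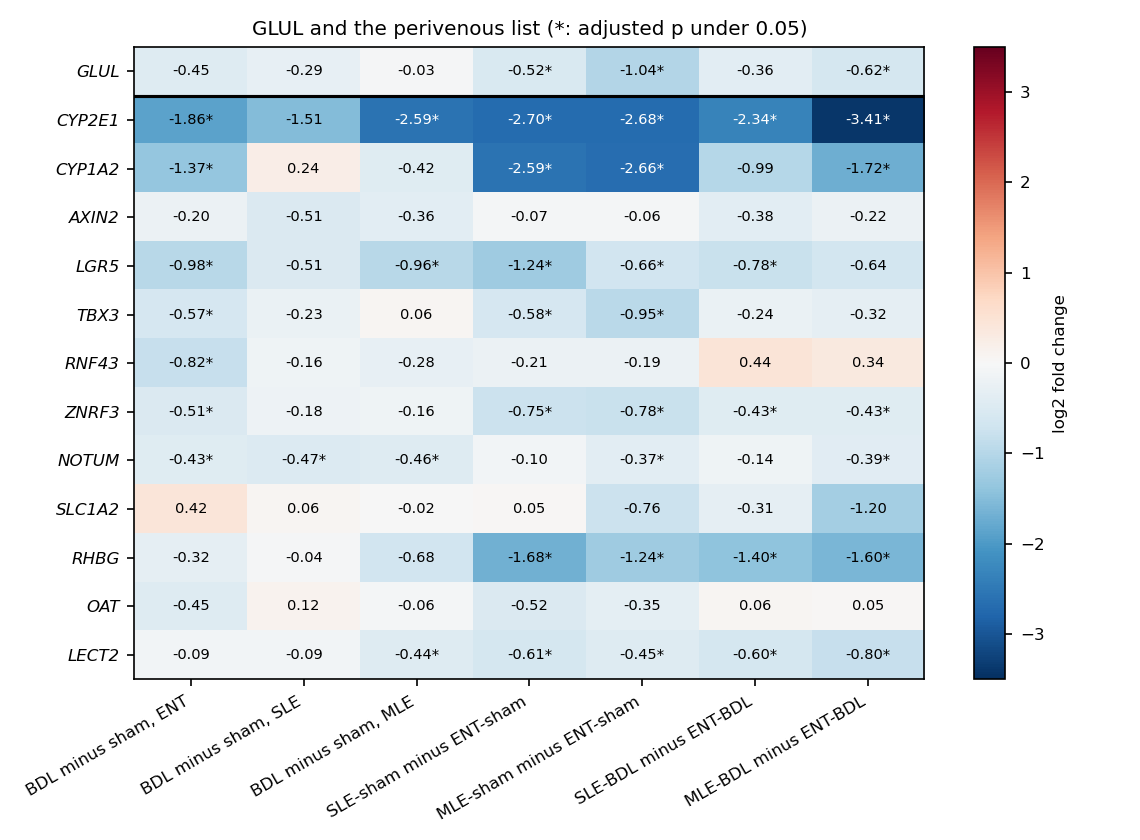
Log2 fold change of *GLUL* (top row) and 12 perivenous genes (rows) in 7 contrasts (columns), with asterisks for an adjusted p under 0.05 and colour from blue (lower) to red (higher). Blue prevails for *CYP2E1*, *RHBG*, *LGR5*, and *ZNRF3* in PN against ENT, down to -3.41 for *CYP2E1* in MLE-BDL against ENT-BDL.

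Of 10 periportal genes, the zone of the urea cycle, 4 were lower and 1 was higher in SLE-sham than in ENT-sham, beside 13.6% and 13.9% of all genes, and 3 and 1 in MLE-sham, beside 10.4% and 10.7%. *G6PC*, glucose-6-phosphatase, had 838 ± 274 CPM in ENT-sham (n = 12), 120.5 ± 46.1 in SLE-sham (n = 10, log2 fold change -2.80, adjusted p = 8.62e-11), and 240.1 ± 114 in MLE-sham (n = 9, -1.80, adjusted p = 5.29e-06). The gene called higher was *GLS2*, liver glutaminase, which releases the ammonia that carbamoyl phosphate synthetase uses. It had 94.6 ± 22.7 CPM in ENT-sham, 159.6 ± 29.8 in SLE-sham (0.75, adjusted p = 0.000434), and 220.1 ± 70.2 in MLE-sham (1.22, adjusted p = 3.26e-07). After ligation 2, 1, and 5 periportal genes were lower in ENT, SLE, and MLE, beside 8.53%, 1.57%, and 6.58% of all genes, with 0, 1, and 0 higher, beside 8.89%, 2.97%, and 7.85%. The one that rose was *SDS*, serine dehydratase, in SLE (3.11, SE 0.59, adjusted p = 0.00101). A few pigs carried that fold, since *SDS* was 1.15, 2.33, and 7.90 CPM in SLE-sham (lowest, median, highest) and 3.33, 6.04, and 152 CPM in SLE-BDL. *FBP1*, a gluconeogenic enzyme, was lower in all 3 diets (-0.45, -0.76, and -0.82). *GLS2* was among those lower in MLE (-0.95, adjusted p = 0.000371). *G6PC* was lower in MLE as well (-1.43, adjusted p = 0.000987), and its ligation response differed between MLE and SLE (interaction -1.72, adjusted p = 0.0462).

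Among 13 measured enzymes of ammonia and glutamate, 2 were higher and 4 lower in SLE-sham than in ENT-sham, and 3 and 2 in MLE-sham, where 27.5% and 21.1% of all genes were called in either direction. *ASNS*, asparagine synthetase, was higher in all 4 PN contrasts, by 0.89 and 1.13 in sham and 1.00 and 1.44 in BDL pigs for SLE and MLE. *GLUD1*, glutamate dehydrogenase, was lower in the same 4 contrasts (-0.52, -0.65, -0.60, and -0.58). After ligation 2 of the 13 fell in ENT and 4 in MLE, and 1 rose in MLE, where 17.4% and 14.4% of all genes were called. Those that fell in ENT were *GOT1* (-0.57) and *ALDH4A1* (-0.50). In MLE they included *GPT2* (-0.81) and *GPT* (-0.61), both alanine transaminases, while *GOT2*, the mitochondrial aspartate transaminase, rose (0.32). *GLS2* belongs to this list too. In SLE 0 were called, beside 4.54% of all genes. Over the ligation contrasts and the PN contrasts with ENT, the median log2 fold change of the list ran from -0.40 (ligation in MLE) to -0.01 (MLE-BDL against ENT-BDL).

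Of 15 genes that use arginine and ornithine, 4 were higher and 4 lower in SLE-sham than in ENT-sham, and 4 were higher in MLE-sham, where 2 were lower without the near-identical ENT libraries. Of all genes 13.9% were higher and 13.6% lower in SLE-sham, and 10.7% higher in MLE-sham. *ODC1*, ornithine decarboxylase of polyamine synthesis, had 51.6 ± 9.43 CPM in ENT-sham (n = 12), 86.5 ± 14.7 in SLE-sham (n = 10), and 86.4 ± 21.9 in MLE-sham (n = 9), a rise of 0.74 in both (adjusted p = 1.26e-05 and 3.45e-05). *ARG2*, the mitochondrial arginase, rose by 0.64 (adjusted p = 0.00297) and 0.83 (adjusted p = 0.000273). *GATM*, which draws arginine into creatine synthesis, was 859 ± 332 CPM in ENT-sham and 364 ± 152 in SLE-sham (-1.24, adjusted p = 8.42e-05), and it also fell after ligation in ENT (-0.82, adjusted p = 0.0136). After ligation 1 of the 15 was higher and 2 lower in ENT (8.89% and 8.53% of all genes), 0 were called in SLE (4.54%), and 1 was lower in MLE (6.58%). The one higher in ENT was *SAT1*, which acetylates polyamines (0.28, adjusted p = 0.0152). *GAMT*, the next enzyme of creatine synthesis, fell after ligation in ENT (-0.55, adjusted p = 0.000111) and MLE (-0.57, adjusted p = 0.000418). In BDL pigs 3 of the 15 were higher on either PN diet than on ENT, and 2 and 0 were lower, where 19.6% (SLE) and 16.8% (MLE) of all genes were called.

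Transporters of amino acids, ammonia, and urea numbered 13, of which 3 were higher and 1 lower on each PN diet in sham pigs, where 27.5% (SLE) and 21.1% (MLE) of all genes were called. *SLC25A22*, a mitochondrial glutamate carrier, was higher in all 4 PN contrasts (0.53, 0.40, 0.53, and 0.52). *SLC7A2*, a cationic amino acid transporter, rose in MLE-sham (0.60, adjusted p = 0.00376) and SLE-BDL (0.47, adjusted p = 0.028). The one that fell in sham pigs was *RHBG*, and without the near-identical ENT libraries 2 fell on each diet. In BDL pigs 3 were higher and 1 lower for SLE, and 2 and 2 for MLE (19.6% and 16.8% of all genes were called), which included *AQP9* (-0.74), a channel for glycerol and urea. Ligation moved none of these genes in ENT or SLE and *SLC1A5*, a neutral amino acid transporter, in MLE (0.37), beside 17.4%, 4.54%, and 14.4% of all genes.

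Of 12 regulators of urea cycle genes, 5 fell after ligation in ENT, 1 in SLE, and 3 in MLE, beside 8.53%, 1.57%, and 6.58% of all genes, and none rose. *CREB3L3*, a hepatocyte transcription factor, fell on each diet, with log2 fold changes of -0.46 for ENT, -0.44 for SLE, and -0.41 for MLE (adjusted p = 0.000267, 0.00318, and 0.00444). *CEBPA*, on which several cycle genes depend in hepatocytes, had 119 ± 55.5 CPM in ENT-sham (n = 12) and 69.9 ± 12.9 in ENT-BDL (n = 10), a change of -0.76 (adjusted p = 0.000219), and was higher in SLE-BDL (0.58) and MLE-BDL (0.60) than in ENT-BDL. Against ENT 2 regulators were higher and 3 lower in SLE-sham, 1 and 1 in MLE-sham, 3 and 2 in SLE-BDL, and 2 and 2 in MLE-BDL, where 27.5%, 21.1%, 19.6%, and 16.8% of all genes were called. Without the near-identical ENT libraries *PPARGC1A* and *SIRT3*, both lower, lost their calls in SLE-sham (adjusted p = 0.0504 and 0.0510). In SLE-BDL *CEBPB*, which was higher, and *SIRT3*, which was lower, lost theirs (adjusted p = 0.0551 and 0.0603). *CREB3L3* was higher in SLE-sham (0.47, adjusted p = 5.76e-05) and SLE-BDL (0.49, adjusted p = 0.000117). *GCGR*, the glucagon receptor, fell after ligation in MLE (-0.59, adjusted p = 0.00117) and was lower in SLE-sham than in ENT-sham (-0.44, adjusted p = 0.00262).

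Other cell types moved with the groups as well. Bile duct cell markers were higher after ligation for 5 of 8 genes in ENT, 1 in SLE, and 6 in MLE, and against ENT for 3 in SLE-sham, 2 in MLE-sham, 1 in SLE-BDL, and 2 in MLE-BDL. For these and the marker counts that follow, the share of all genes higher after ligation was 8.89% in ENT, 2.97% in SLE, and 7.85% in MLE, and the share lower was 8.53%, 1.57%, and 6.58%. Against ENT the shares higher and lower were 13.9% and 13.6% for SLE-sham, 10.7% and 10.4% for MLE-sham, 10.4% and 9.17% for SLE-BDL, and 8.53% and 8.27% for MLE-BDL. The summed level of the bile duct markers was 73.4 to 372 CPM in ENT-sham and 228 to 416 in ENT-BDL, 220.3 to 386 in SLE-sham and 267 to 453 in SLE-BDL, and 172 to 243 in MLE-sham and 248 to 455 in MLE-BDL. *KRT7* and *KRT19*, which define bile duct cells, were detected in every pig, and ENT-sham replicate 2 held the highest sum of its group. Connective tissue cell markers were higher after ligation for 2 of 7 genes in ENT, 1 in SLE, and 4 in MLE, with sums of 1181 to 4080.0 CPM in ENT-sham and 1381 to 4090.2 in ENT-BDL. Hepatocyte markers after ligation in ENT were lower for 4 of 8 and higher for 1, with sums of 92963 to 184633 CPM in ENT-sham and 93358 to 167021 in ENT-BDL. Red cell markers were lower than in ENT for 2 of 6 genes in SLE-sham, 1 in MLE-sham, 1 in SLE-BDL, and 4 in MLE-BDL, and lower after ligation for 2 in MLE. Their sums were 479.9 to 2433 CPM in ENT-sham, 224 to 831 in SLE-sham, and 440.3 to 837 in MLE-sham, and 344 to 3853 in ENT-BDL, 129.6 to 1399 in SLE-BDL, and 141 to 512 in MLE-BDL. *HBB*, a haemoglobin gene, was detected in every pig. Macrophage markers after ligation were higher for 1 of 7 genes on each diet, *MARCO* (1.48 in ENT, 1.01 in SLE, and 1.13 in MLE), and lower for *C1QA* in ENT (-0.48) and MLE (-0.58), with sums of 625 to 1278 CPM in ENT-sham and 469 to 1155 in ENT-BDL. In SLE-sham against ENT-sham 2 were higher and 2 lower. Of 5 neutrophil markers *CSF3R* was higher after ligation in ENT (0.94) and MLE (1.78) and in SLE-sham against ENT-sham (0.82), with sums of at most 56.3 CPM in any pig. Hepatocyte markers against ENT were higher for 1 and lower for 3 of 8 in SLE-sham, 2 and 1 in MLE-sham, 1 and 1 in SLE-BDL, and 0 and 1 in MLE-BDL. The part of these cell types in the differences of *ARG1*, *SLC25A13*, *NAGS*, and *GLUL* was not tested.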

How the data were processed

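Liver RNA of 60 pigs was sequenced from poly-T selected libraries (NEBNext Ultra, for which strand marking is not given in the sources used here). The authors deposited gene counts, made from trimmed reads aligned to Sscrofa11.1 with HISAT2 2.0.5, assembled with StringTie 1.3.3, and counted with featureCounts 1.5.0-p3. From these counts 24 features with no gene name (0.00842 to 0.0407% of counts per library) were left out. Tables were read in R 4.3.3. Genes were filtered with filterByExpr (minimum count 10), normalized by TMM, and tested with the quasi-likelihood test of edgeR 4.0.16 in a fit over all 60 pigs with a mean for each group. The Benjamini-Hochberg adjustment covered 16210 genes, and an adjusted p under 0.05 was a call. Correlations and variance shares used log2 CPM with a prior count of 2, and 95% intervals came from the fit. Each library was treated as a separate pig, and the counts of pigs rest on that. For ENT-sham replicate 2 and ENT-BDL replicate 1 this is in doubt, given their chi-square of 1.87 per degree of freedom. SLE-sham replicates 9 and 10 carry the same letter and number in their labels. Their chi-square was 31.7 per degree of freedom, rank 52 of 1770 pairs from the closest. Whether the libraries of either pair came from separate pigs was not tested. Every contrast was also run with DESeq2 1.42.0, other normalization and filters, label-number blocks, and single pigs left out. Code was checked on simulated counts.

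The members and all gene lists were chosen with earlier results of these data known. Named were all 9 members, up to 3 genes with the largest change among those called per related list and contrast, and the 3 genes most correlated with each member (not all are printed). A gene so named was followed into other contrasts, and single calls were named, after its values were seen. *G6PC* stands for *G6PC1*, and a date-like symbol was restored to *MARCH6* from RefSeq by gene ID. *PRODH* and *SLC25A2* were not matched. Figures were drawn with matplotlib.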

Additional observations from a re-analysis of the deposited data

Results flagged for a closer look

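In groups of 8 to 10 pigs, a pig was marked where its gap to the nearest pig exceeded Dixon's 95% critical share of the group's range. Of 36 combinations of member and group, 4 were marked, and chance marks about 1 in 20. *ASS1* in MLE-BDL replicate 2 was 959 CPM, and the next pig had 654 CPM. *ASL* in SLE-sham replicate 6 was 188 CPM, above 130 CPM in the next pig, and *GLUL* in the same pig was 447 CPM, above 306 CPM. *SLC25A15* in SLE-sham replicate 3 was 322 CPM, above 219 CPM in the next. All 4 were the highest pigs of their groups. No interaction of a member between diets passed the threshold.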

How the results depend on the processing

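Counts of called members are given first. With DESeq2 on all pigs, the label replicate number as a block, the label-number block, or without both near-identical ENT libraries, 3 rather than 2 members were called for ligation in ENT, the added one being *NAGS*. These counts stay within 1.5 times. For ligation in MLE, 2 rather than 1 were called with edgeR on the groups compared and under the label-number block (*OTC* added), and 0 under the replicate block (*ASS1* at -0.59, adjusted p = 0.0597). For MLE-BDL against ENT-BDL, 1 rather than 2 were called with no filter on low counts and under the label-number block, *GLUL* being lost. For MLE-sham against ENT-sham 3 rather than 2 were called with edgeR on the groups compared (*CPS1* added) and under the label-number block or without both near-identical ENT libraries (*SLC25A13* added), and for SLE-sham 2 rather than 3 with no filter and under the label-number block (*GLUL* lost). A fold over 2 as well left 1 call for MLE-sham against ENT-sham and 0 for ligation in ENT and MLE, SLE-sham against ENT-sham, and both PN diets against ENT in BDL pigs. With single pigs left out these counts ran from 0 to 1 for MLE-sham against ENT-sham and for SLE-BDL against ENT-BDL and were 0 in the other diet and ligation contrasts, and the label-number block left 0 for MLE-sham (an alternative added after seeing the data).

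With single pigs left out, the counts ran from 2 to 4 for ligation in ENT, 0 to 2 in MLE, and 0 to 0 in SLE, from 2 to 3 for SLE-sham and 1 to 3 for MLE-sham against ENT-sham, 0 to 1 for MLE-sham against SLE-sham, 1 to 1 for SLE-BDL and 1 to 2 for MLE-BDL against ENT-BDL, and 0 to 0 for the other contrasts. Neighbouring groups called in the order of means, an alternative added after seeing the data, numbered 1, against 0 with edgeR on the groups compared, RLE, an unfiltered table, or a minimum of 10 counts per pig, 2 under the label-number block or without both near-identical ENT libraries, and 0 to 3 with single pigs left out.

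Of 864 single log2 fold changes (108 values under 8 settings), 850 kept their side of the threshold, 5 lost a call, 9 gained one, and 0 turned direction with a call. The labels do not say whether the replicate number pairs pigs, and the main fit used no pairing. Residual correlations of same-numbered pigs ran from -0.231 to 0.381 over 137 pairs, and 25 exceeded 0.1. Such pooled pairs cannot exclude pairing within a single contrast. Between SLE-BDL and ENT-BDL the median was 0.129, with 6 of 10 pairs over 0.1. Between MLE-sham and MLE-BDL the 8 same-numbered pairs also share their 3-digit label number, and their correlations had a median of 0.181 with 5 of 8 over 0.1. In that contrast the replicate block gave the *ASS1* value above, while the label-number block gave -0.62 (adjusted p = 0.0195). For the 3-digit label number the mean correlation was 0.133 within and -0.0178 between numbers, and MLE pigs carried 4 of the 8 numbers, so diet and number overlap in part. The counts behind the background shares moved by over 1.5 times in these cases: ligation in SLE 736 against 420 with edgeR on the groups compared, MLE-sham against SLE-sham 162 against 277 with DESeq2 and 105 with a minimum of 10 counts, SLE-BDL against ENT-BDL 3176 against 1946 on the groups compared, and MLE-BDL against SLE-BDL 147 against 300 with DESeq2, 19 on the groups compared, and 16 under the label-number block. For the interactions they were 377 against 241 on the groups compared and 725 without both near-identical ENT libraries (SLE minus ENT), 10 against 47 with DESeq2, 37 on the groups compared, 17 with a minimum of 10 counts, 76 under the label-number block, and 38 without both libraries (MLE minus ENT), and 43 against 118 with DESeq2 and 81 without both libraries (MLE minus SLE). The cause was not tested.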
